A study of Mus musculus with 43 samples.

Results

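Genes of the amino acid stress response and of serine and folate metabolism were followed in mononuclear phagocytes of the newborn mouse lung: Atf4, Ddit3, Trib3, Asns, Phgdh, Psat1, Psph, Shmt1, Shmt2 and Mthfd2. They were taken by name, through their Ensembl identifiers, and make up 10 of the 37991 genes in the count table. In normoxia, 6 of the 10 (Atf4, Ddit3, Trib3, Asns, Phgdh and Psat1) were called higher in alveolar macrophages and in Ly6Clo cells than in dendritic cells and in Ly6Chi cells, as were 6.22% of all genes. In hyperoxia 0 of the 10 were called within a single population by edgeR's quasi-likelihood test (0% to 0.11% of all genes were). By that test 7 of 37 values had an unadjusted p under 0.05, 4 of them in alveolar macrophages, where 990 of 9986 genes had one. It was 998 of 11274 genes in dendritic cells, 591 of 10844 in Ly6Chi cells and 540 of 10188 in Ly6Clo cells. DESeq2 called Shmt2 in alveolar macrophages, among 111 genes that it called there. Over the 4 populations together 1 of the 10, Shmt2, was called (3.02% of all genes were) and fell, by 0.48 on the log2 scale (95% interval −0.73 to −0.23, 43 libraries). The Shmt2 call did not hold under several of the other settings, which are given beside it.

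C57BL/6 pups were identified within hours of birth, their litters were mixed, and they were assigned at random to a normoxic control condition or to hyperoxia at an inspired oxygen fraction of 0.9. Both exposures lasted 1.5 days. Cells of digested, perfused lungs were then sorted into 4 populations: dendritic cells (DC; MHCIIhi CD11chi), alveolar macrophages (AM; SiglecFhi CD11chi), Ly6Chi monocytes/macrophages (Ly6Chi CD11clo) and Ly6Clo monocytes/macrophages (Ly6Clo CD11chi). DC, AM and Ly6Chi each had 6 normoxic and 5 hyperoxic libraries, and Ly6Clo had 5 of each. The labels give a litter for every library (93, 100 or 108), every litter held both oxygen conditions in every population, and each hyperoxic group had 1 library of litter 100. Nothing in the labels links a library to an individual pup, and library numbers within a group follow the order of deposit, so they were not used to pair libraries. Whether libraries of 1 number in different populations came from the same pups is not given in the sources used here, and the fits over several populations treat libraries of a litter as independent. All p-values therefore measure the spread between libraries, which may be partly technical. Each library is bulk RNA of a sort, so fewer cells that make a transcript and less of it per cell cannot be told apart.

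ATF4 is a transcription factor whose own translation increases when the initiation factor eIF2 is phosphorylated, for instance by the amino acid sensor GCN2 or the endoplasmic reticulum sensor PERK. Much of its regulation is therefore not visible in the level of its mRNA, which is what was counted here. With partners of the C/EBP family it binds C/EBP-ATF response elements (CARE) and activates genes of amino acid synthesis and uptake. Phgdh, Psat1 and Psph encode the successive enzymes that make serine from a glycolytic intermediate. SHMT2 and MTHFD2 in mitochondria, and SHMT1 in the cytosol, pass the carbon of serine to folate for purine and thymidylate synthesis, so this branch is also known to follow cell growth.

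The promoter windows of Asns and Trib3 are shown because they held a CARE match and both genes differed widely between populations, and that of Shmt2 because it was the gene called in hyperoxia. Each runs from 250 bases before to 50 bases after the RefSeq start (GRCm38.p6), 5′ to 3′ on the strand of the gene, and capitals mark the match to the CARE motif TGATGNAAN on either strand.
Asns, chr6:7693160-7693459, minus strand: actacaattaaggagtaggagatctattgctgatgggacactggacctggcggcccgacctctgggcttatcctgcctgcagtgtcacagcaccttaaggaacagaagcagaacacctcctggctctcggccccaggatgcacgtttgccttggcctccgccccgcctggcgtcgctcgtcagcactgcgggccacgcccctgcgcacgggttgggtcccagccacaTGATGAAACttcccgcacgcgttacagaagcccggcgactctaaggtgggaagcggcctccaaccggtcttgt
Trib3, chr2:152344011-152344310, minus strand: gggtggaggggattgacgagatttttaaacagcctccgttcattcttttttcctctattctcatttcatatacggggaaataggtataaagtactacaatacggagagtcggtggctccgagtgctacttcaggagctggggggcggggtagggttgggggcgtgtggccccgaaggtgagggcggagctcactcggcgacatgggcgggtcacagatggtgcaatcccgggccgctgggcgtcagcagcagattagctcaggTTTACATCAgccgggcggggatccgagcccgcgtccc
Shmt2, chr10:127522395-127522694, minus strand: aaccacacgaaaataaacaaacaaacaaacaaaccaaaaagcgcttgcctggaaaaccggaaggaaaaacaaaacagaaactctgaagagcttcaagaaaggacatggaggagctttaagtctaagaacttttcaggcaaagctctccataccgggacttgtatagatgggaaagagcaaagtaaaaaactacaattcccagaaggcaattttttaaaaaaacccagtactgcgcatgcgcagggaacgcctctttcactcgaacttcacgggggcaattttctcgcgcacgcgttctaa
The match in Asns reads TGATGAAAC and begins 23 bases before the start. In Trib3 the match lies on the other strand, reads TTTACATCA on the strand shown and begins 13 bases after the start. The motif was in 1299 of 32851 such windows (3.95%), and of the 10 genes it was in these 2 only. Its stricter core TGATGCAAT (0.192% of all windows) and the palindrome TGACGTCA (1.79%), both searched on both strands, were in no window of the 10 genes. Psat1 has 2 annotated windows and the others have 1 each. A match is a string of letters and not a measured binding site, and an element outside these windows would not have been seen.

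Library totals ran from 551960 to 2403861 counts, and 5 of the 43 libraries, 3 of them hyperoxic AM, held under 1000000. The summed level of 10 AM markers was highest in AM (median 3027 CPM in normoxia, where CPM are counts per 1000000 after scaling), followed by Ly6Clo (1554), Ly6Chi (830.6) and DC (388.4). DC markers were highest in DC (median sum 4622 CPM against 486.7 to 547.5 in the other normoxic groups), and classical monocyte markers in Ly6Chi (5821 against 1522 to 2961). The 8 non-classical monocyte markers, at 1904 CPM in Ly6Clo against 1405 to 1748 elsewhere, did not set that sort apart. Interstitial macrophage markers were about as high in Ly6Clo (1866) as in DC (1627). Epithelial markers were found in every group and varied widely between libraries, from 23.19 to 3004 CPM in sum. In normoxia, neutrophil markers had a median sum of 1691 CPM in Ly6Chi against 156.1 to 285.1 in the other groups. B cell markers were at 657.7 CPM in DC against 67.81 to 261.9. T and NK cell markers were at 261.6 CPM in AM, 219 in Ly6Clo, 165.5 in DC and 22.62 in Ly6Chi. Any link of these markers to the levels of the 10 genes was not tested. Where libraries stood apart, it was by litter and number: the hyperoxic library of litter 100 had the lowest mean of the proliferation genes in each of the 4 hyperoxic groups, and hyperoxic library 5 of each population (litter 108) had high Asns.

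**Figure D1:**
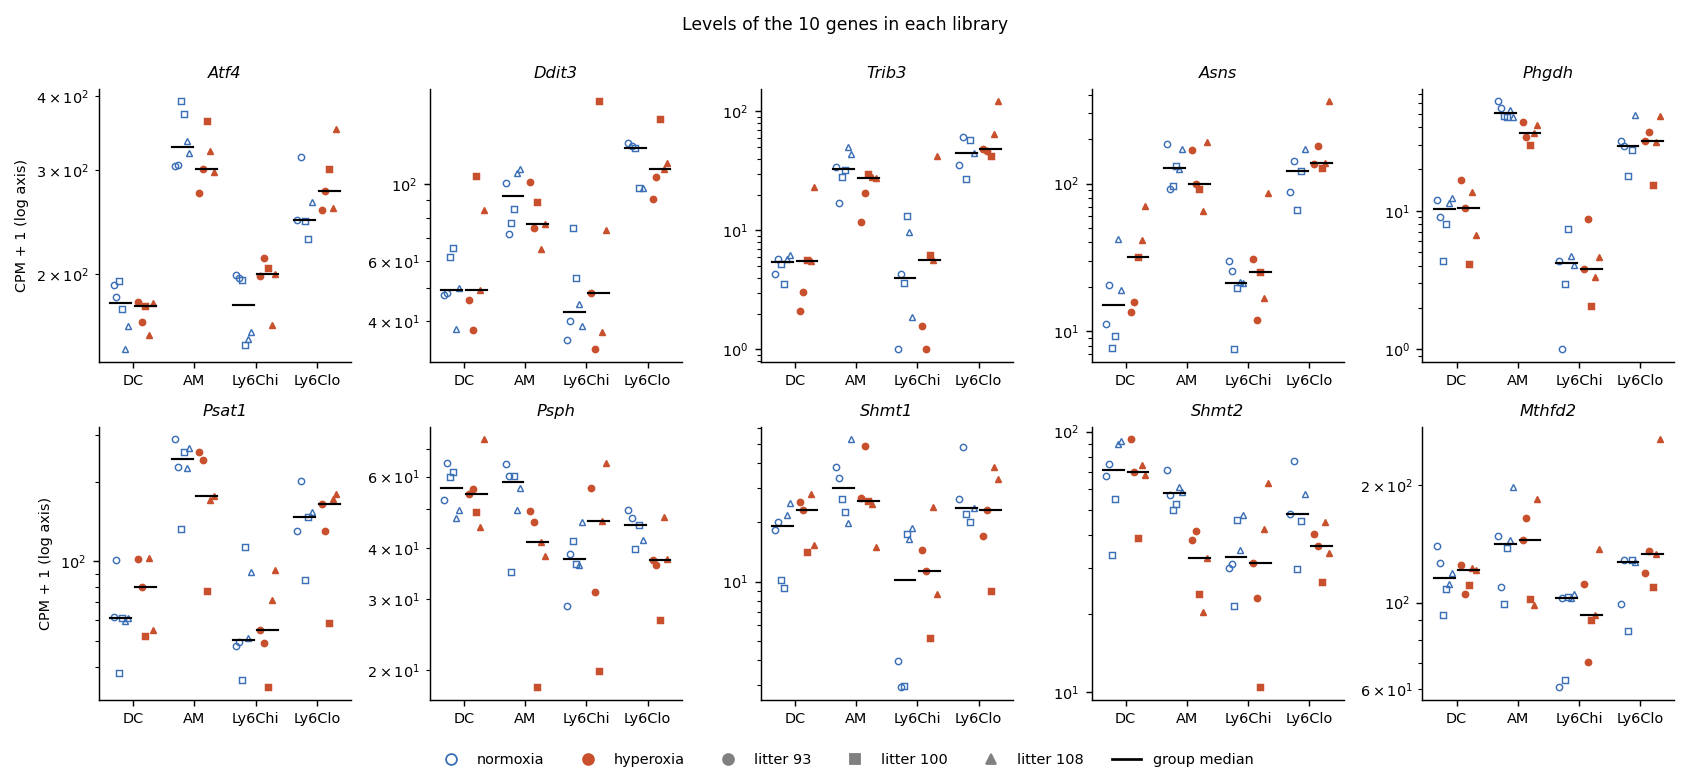
Levels of the 10 genes in the 43 libraries, as CPM + 1 on log axes that differ between panels; open blue symbols are normoxic and filled red ones hyperoxic libraries, symbol shapes give the litter, and bars are group medians. For Atf4, Ddit3, Trib3, Asns, Phgdh and Psat1 the AM and Ly6Clo medians lie above the DC and Ly6Chi medians, while normoxic and hyperoxic libraries overlap in all panels and populations except Phgdh and Shmt2 in AM. How many of all genes lack such overlap in AM was not counted.

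The level of each gene over the populations was compared in normoxia, in 1 fit of the 4 populations with litter as a term (edgeR quasi-likelihood F test, Benjamini-Hochberg adjustment over 11979 genes). A gene is called where its adjusted p is below 0.05, and differences are given on the log2 scale, each with its SE (standard error). The 4 sorts differ widely: 49.9% of all genes were called between AM and DC, 52.2% between AM and Ly6Chi, 21.5% between AM and Ly6Clo, 28.7% between DC and Ly6Chi, 24.4% between DC and Ly6Clo and 30.7% between Ly6Chi and Ly6Clo. Of the 10 genes, 6 were higher in AM than in DC (22.4% of all genes were), 10 higher in AM than in Ly6Chi (24%) and 1 higher in AM than in Ly6Clo (7.28%). A further 3 comparisons gave 3 higher in DC than in Ly6Chi (14.2%), 6 lower in DC than in Ly6Clo (12.7%) and 8 lower in Ly6Chi than in Ly6Clo (15%). None of the 10 was called in the opposite direction in any pair. A gene higher in both AM and Ly6Clo than in both DC and Ly6Chi needs 4 such calls. This held for 745 of the 11979 genes (6.22%) and for 6 of the 10, and the opposite pattern held for 489 (4.08%) and for 0 of the 10. AM marker genes followed the same order, with 8 of 10 passing the 4 calls (Siglecf, Marco, Pparg, Fabp4, Fabp5, Ear2, Ear1 and Cidec). Any link between AM marker content and the levels below was not tested.

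**Figure D2:**
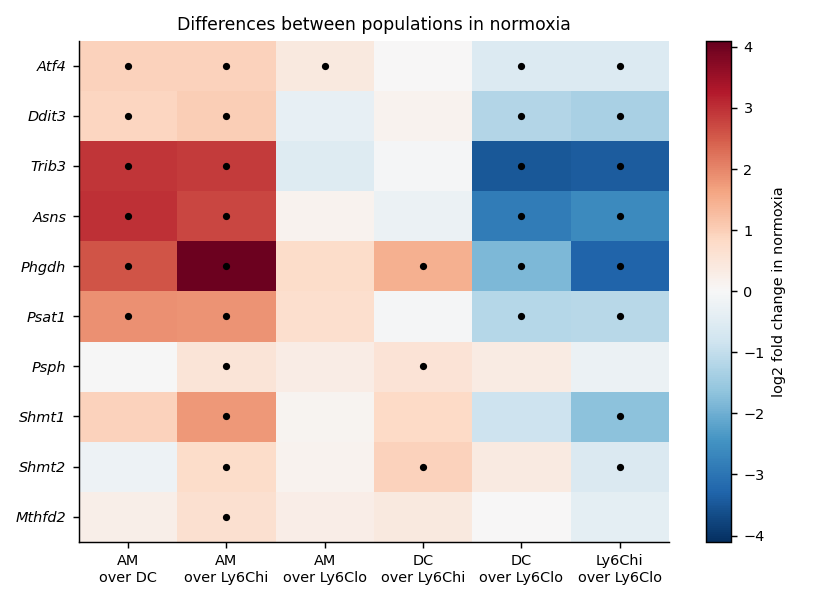
Log2 fold changes of the 10 genes between pairs of populations in normoxia, coloured from −4.1 (blue) to 4.1 (red), with a dot where the adjusted p was under 0.05. AM was above DC and Ly6Chi, and DC and Ly6Chi were below Ly6Clo, for Atf4 to Psat1, with 1 dot in the column of AM over Ly6Clo.

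Atf4 (ENSMUSG00000042406), the transcription factor itself, was the highest of the 10 per length in every group. In normoxia it was at 304, 327 and 391 CPM (lowest, median and highest) in AM and at 246, 314, 244, 228 and 263 CPM in the 5 Ly6Clo libraries. It was at 148, 177 and 194 CPM in DC and at 150.5, 176 and 198 CPM in Ly6Chi. The AM and Ly6Clo libraries all lay above those of DC and Ly6Chi. AM exceeded DC by 0.95 (SE 0.10, adjusted p = 2.31e-08) and exceeded Ly6Clo by 0.40 (SE 0.11, adjusted p = 0.00898). That second difference was lost without litter 100 (0.24, adjusted p = 0.16) and without litter 108 (0.40, adjusted p = 0.0661), and in the hyperoxic libraries it was 0.14 (adjusted p = 0.519). DC and Ly6Chi did not differ beyond their spread (0.0062, 95% interval −0.19 to 0.21).

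Ddit3 (ENSMUSG00000025408) encodes CHOP, a partner and target of ATF4 that is associated with prolonged stress and cell death. Its normoxic level was highest in Ly6Clo, at 131, 128, 126, 96.5 and 96.8 CPM, and then in AM, at 70.7, 91.6 and 109.6 CPM (lowest, median and highest). DC were at 37.0, 48.2 and 64.2 CPM and Ly6Chi at 34.5, 41.6 and 73.6 CPM. AM and Ly6Clo did not differ beyond their spread (−0.32, 95% interval −0.68 to 0.03), nor did DC and Ly6Chi (0.13, −0.21 to 0.48). Ly6Clo lay above DC without overlap, by 1.19 on the log2 scale in the contrast written as DC over Ly6Clo (−1.19, SE 0.18, adjusted p = 1.59e-05).

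Trib3 (ENSMUSG00000032715) encodes a pseudokinase that ATF4 and CHOP induce and that restrains both of them. In normoxia it was at 34.5, 59.8, 26.1, 56.3 and 43.6 CPM in Ly6Clo and at 15.9, 31.9 and 48.8 CPM (lowest, median and highest) in AM. In DC it was at 2.54, 4.47 and 5.23 CPM and in Ly6Chi at 0, 2.98 and 12.2 CPM, so that the lowest AM library was above the highest of these 12. The difference between DC and Ly6Clo was −3.47 (SE 0.51, adjusted p = 8.86e-06), which with the −3.40 between Ly6Chi and Ly6Clo was the widest of Trib3. AM and Ly6Clo did not differ beyond their spread (−0.53, 95% interval −1.39 to 0.33).

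Asns (ENSMUSG00000029752) encodes asparagine synthetase, a classic target of ATF4 under amino acid shortage. AM were at 90.9, 127 and 185 CPM (lowest, median and highest) in normoxia and the Ly6Clo libraries at 86.4, 141, 65.7, 119.9 and 170.0 CPM. DC were at 6.71, 14.2 and 41.2 CPM and Ly6Chi at 6.57, 20.4 and 29.0 CPM. Every AM and Ly6Clo library was thus above every DC and Ly6Chi library. The log2 difference was 2.99 (SE 0.29, adjusted p = 8.40e-09) between AM and DC and 2.75 (SE 0.29, adjusted p = 1.85e-08) between AM and Ly6Chi. It was 0.14 between AM and Ly6Clo (95% interval −0.41 to 0.68). Among the 10 genes, Asns and Trib3 are the pair whose promoter windows, shown above, hold the CARE match.

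Phgdh (ENSMUSG00000053398) encodes the enzyme of the first step of serine synthesis and was the gene with the widest single difference among the 10. Normoxic AM were at 46.5, 49.6 and 60.6 CPM (lowest, median and highest), and Ly6Clo libraries at 30.8, 28.3, 16.8, 26.3 and 48.0 CPM. DC were at 3.35, 9.20 and 11.3 CPM and Ly6Chi at 0, 3.22 and 6.38 CPM. Unlike the genes above, Phgdh also separated DC from Ly6Chi (1.44, SE 0.41, adjusted p = 0.00751), a call that ended without litter 93 (1.03, adjusted p = 0.113) and without litter 108 (1.31, adjusted p = 0.116). AM exceeded Ly6Chi by 4.03 (SE 0.39, adjusted p = 2.31e-09). AM and Ly6Clo were not called apart (0.76, SE 0.34, adjusted p = 0.105), although they were with DESeq2 (0.80, adjusted p = 0.0255) and without normoxic Ly6Chi library 2 (0.77, adjusted p = 0.0382).

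Psat1 (ENSMUSG00000024640), which encodes the transaminase of the second step, followed the same order with smaller differences. In AM it was at 132, 242 and 288 CPM (lowest, median and highest) and in Ly6Clo at 129, 200.03, 84.2, 145 and 153 CPM. DC were at 36.9, 60.4 and 101 CPM and Ly6Chi at 34.8, 49.5 and 112 CPM, so Ly6Clo overlapped both. Of its 4 calls against DC and Ly6Chi, that of Ly6Clo over Ly6Chi (−1.14 as Ly6Chi over Ly6Clo, SE 0.28, adjusted p = 0.00297) ended without litter 93 (−0.84, adjusted p = 0.0873). AM exceeded DC by 1.88 (SE 0.26, adjusted p = 3.29e-06), and AM and Ly6Clo were not called apart (0.70, SE 0.27, adjusted p = 0.0683; DESeq2 called them, at 0.74 and an adjusted p of 0.0286, as did a fit with no filter, at 0.000635, and fits without normoxic AM library 3, at 0.0344, or Ly6Chi library 4, at 0.0181).

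Psph (ENSMUSG00000029446), the phosphatase of the last step of serine synthesis, did not share the pattern. Its normoxic group means lay between 37.1 ± 5.91 CPM in Ly6Chi (SD, n = 6) and 54.9 ± 7.02 CPM in DC (SD, n = 6), with 53.3 ± 10.7 CPM in AM (SD, n = 6) and 43.9 ± 4.06 CPM in Ly6Clo (SD, n = 5). Both DC (0.57, SE 0.16, adjusted p = 0.00803) and AM (0.54, SE 0.16, adjusted p = 0.0067) were called above Ly6Chi. Both calls ended without a filter on low counts (adjusted p = 0.0662 and 0.0586) and without litter 93 (adjusted p = 0.198 and 0.224). Between AM and DC, where Phgdh and Psat1 differed, Psph did not differ beyond its spread (−0.03, 95% interval −0.34 to 0.29).

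Of the folate genes, Mthfd2 (ENSMUSG00000005667), the mitochondrial dehydrogenase and cyclohydrolase, had normoxic means of 139 ± 34.7 CPM in AM, 115 ± 15.8 CPM in DC and 88.6 ± 21.4 CPM in Ly6Chi (SD, n = 6 each) and 113 ± 20.7 CPM in Ly6Clo (SD, n = 5). AM over Ly6Chi was called for it (0.65, SE 0.16, adjusted p = 0.00163). DC over Ly6Chi was not (0.40, adjusted p = 0.0698), but was with DESeq2 (0.41, adjusted p = 0.0464) and without normoxic Ly6Chi library 4 (0.51, adjusted p = 0.0197). Ly6Chi against Ly6Clo was not called either (−0.39, adjusted p = 0.0838), but was without that library (−0.51, adjusted p = 0.0266) and without normoxic Ly6Clo library 3 (−0.50, adjusted p = 0.0429). Shmt1 (ENSMUSG00000020534), the cytosolic hydroxymethyltransferase, was the lowest of the 10 per length in AM and Ly6Clo, with 31.2 ± 12.2 CPM in AM (SD, n = 6), 27.0 ± 11.5 CPM in Ly6Clo (SD, n = 5), 16.5 ± 6.41 CPM in DC (SD, n = 6) and 9.41 ± 7.85 CPM in Ly6Chi (SD, n = 6). It was called higher in AM than in Ly6Chi (1.78, SE 0.43, adjusted p = 0.00127) and in Ly6Clo than in Ly6Chi (−1.68 as Ly6Chi over Ly6Clo, SE 0.45, adjusted p = 0.00642, lost without litter 93 at −0.87 and an adjusted p of 0.233). AM over DC was not called for Shmt1 (0.95, adjusted p = 0.0566), but was with DESeq2 (0.99, adjusted p = 0.04) and with no filter on low counts (0.96, adjusted p = 0.0115). It was also called when 1 of 6 normoxic libraries was left out (Ly6Chi 1, 2, 3 or 4, AM 5 or Ly6Clo 5), at adjusted p from 0.0238 to 0.0483. DC over Ly6Chi, not called at 0.82 (adjusted p = 0.167), was called without Ly6Chi 4 (1.33, adjusted p = 0.0154).

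Shmt2 (ENSMUSG00000025403), the mitochondrial hydroxymethyltransferase, had another order, with DC at the top. DC were at 32.7, 70.4 and 91.2 CPM (lowest, median and highest), AM at 49.1, 57.0 and 70.2 CPM, Ly6Clo at 47.5, 76.5, 28.6, 44.6 and 56.7 CPM, and Ly6Chi at 20.4, 32.1 and 46.7 CPM. DC exceeded Ly6Chi by 0.96 (SE 0.21, adjusted p = 0.000948) and AM exceeded Ly6Chi by 0.75 (SE 0.21, adjusted p = 0.00468, lost without litter 93 at 0.58 and an adjusted p of 0.0969). The difference between Ly6Chi and Ly6Clo (−0.60, SE 0.22, adjusted p = 0.0436) lay close to the threshold, with −0.31 and an adjusted p of 0.524 without litter 93, −0.66 and 0.122 without litter 108, and −0.58 and 0.0929 with no litter term. It also ended without any 1 of 10 normoxic libraries (DC 2, 4, 5 and 6, Ly6Chi 1, 2, 3 and 5, Ly6Clo 2 and 4), at adjusted p from 0.0502 to 0.165. AM and DC were not called apart (−0.21, 95% interval −0.62 to 0.20).

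Per kilobase of exon the genes can be set side by side within a group. In normoxic AM the mean CPM per kilobase was 143 for Atf4, 54.6 for Psat1, 53.2 for Ddit3, 48.6 for Asns, 39.7 for Mthfd2, 20.6 for Phgdh, 18.5 for Shmt2, 15.5 for Trib3, 12.3 for Psph and 8.05 for Shmt1. In normoxic DC it was 74.1 for Atf4 and 33.1 for Mthfd2, but 6.36 for Asns, 3.41 for Phgdh and 1.94 for Trib3, the lowest of the 10 there. The order among genes therefore differed between sorts, with Asns near Mthfd2 in AM and far below it in DC.

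Other genes of the pathway were read against the same 4 calls, which 6.22% of all genes met in one direction and 4.08% in the other. Of 22 further ATF4 targets and amino acid genes tested, 3 met the 4 calls: Gdf15, a stress-induced cytokine (164 ± 40.7 CPM in normoxic AM, SD, n = 6, against 9.83 ± 5.36 CPM in DC, SD, n = 6), and the ATF4-related factors Atf5 and Cebpg. Ppp1r15a, the GADD34 subunit that reverses eIF2 phosphorylation, met the 4 calls in the other direction, with 42.9 ± 13.1 CPM in AM and 160 ± 57.0 CPM in DC (SD, n = 6 each). Of the aminoacyl-tRNA synthetases 0 of 20 were higher and 2 were lower (Kars and Vars). Of the eIF2 kinases and regulators 1 of 14 was higher (Eif2ak4, the gene of GCN2) and 2 were lower (Eif2ak2 and Eif2b4), and of the endoplasmic reticulum chaperones and unfolded protein response genes 3 of 22 were higher (Dnajb9, Canx and Sel1l) and 0 lower. Of the other folate and one-carbon enzymes (20 tested), the serine and glycine transport genes (11) and the proliferation genes (30), 0 met the 4 calls in either direction.

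The same pairs were fitted in the hyperoxic libraries, an alternative added after the data were seen. Of the 60 values (10 genes in 6 pairs), 34 were called in normoxia, and of these 26 were called in the same direction in hyperoxia and 32 had the same sign. Of all genes, hyperoxia against normoxia gave 5274 and 5977 calls between AM and DC, 5377 and 6256 between AM and Ly6Chi, and 1309 and 2574 between AM and Ly6Clo. It gave 2243 and 3434 between DC and Ly6Chi, 2812 and 2926 between DC and Ly6Clo, and 3482 and 3677 between Ly6Chi and Ly6Clo. How many of all genes kept their call or sign was not counted. Asns, Phgdh, Psat1 and Atf4 kept all 4 of their calls against DC and Ly6Chi. Trib3 in AM over Ly6Chi was 1.58 (adjusted p = 0.0801) and Ddit3 in AM over DC was 0.51 (adjusted p = 0.124) and over Ly6Chi 0.44 (adjusted p = 0.184). For Shmt2, AM stood below DC in hyperoxia (−1.10, adjusted p = 0.00253), and AM over Ly6Chi, 0.75 in normoxia, was −0.038 (adjusted p = 0.926). Psph in AM over Ly6Chi, 0.54 in normoxia, was −0.12 (adjusted p = 0.711).

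Hyperoxia was compared with normoxia within litter in each population. By the quasi-likelihood test 0 of the 10 genes were called in any population, and the background was as low: 0 of 11274 genes in DC (0%), 11 of 9986 in AM (0.11%, all 11 higher), 0 of 10844 in Ly6Chi (0%) and 0 of 10188 in Ly6Clo (0%). Counts at an unadjusted p under 0.05 were 998, 990, 591 and 540 genes in these populations. Trib3 in DC and Ly6Chi and Phgdh in Ly6Chi did not pass the filter on low counts, so 37 values of the 10 genes were tested. At an unadjusted p under 0.05 there were 7 of them: Asns in DC, Ddit3 in Ly6Chi, Shmt2 in Ly6Clo, and Phgdh, Psat1, Psph and Shmt2 in AM. DESeq2 called 1 of the 37 and a fit with no filter on low counts called 1, in both cases Shmt2 in AM. Of all genes DESeq2 called 111 in AM, 24 in DC, 5 in Ly6Chi and 1 in Ly6Clo. With no filter it was 325 in AM, 369 in DC, 235 in Ly6Chi and 173 in Ly6Clo.

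**Figure D3:**
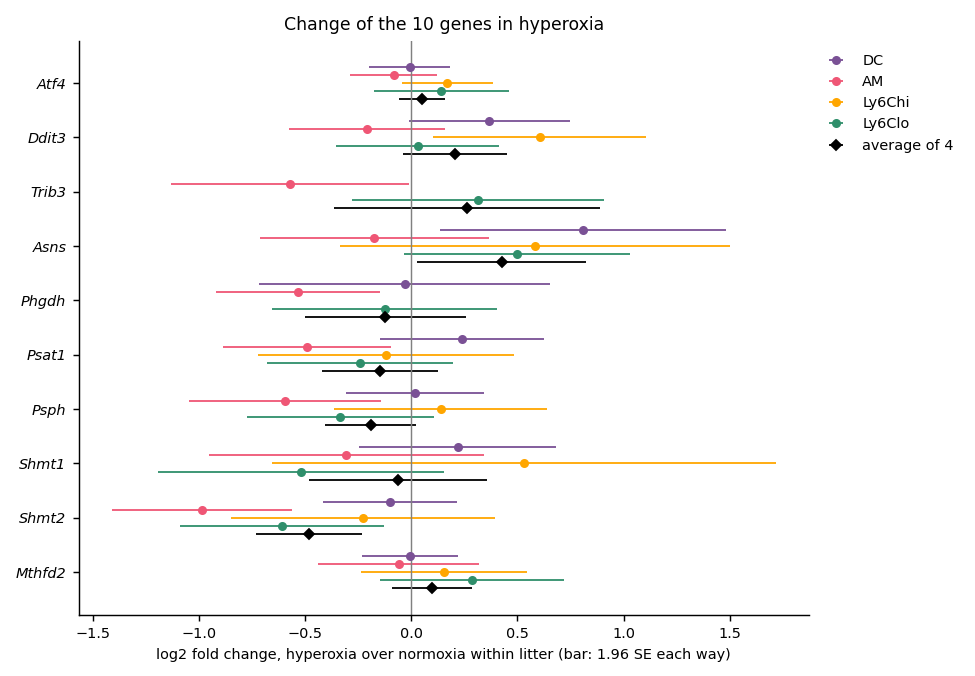
Log2 fold change of each gene in hyperoxia over normoxia, within litter, in the 4 populations and averaged over them (black diamonds); bars are 95% intervals, and Trib3 in DC and Ly6Chi and Phgdh in Ly6Chi were not tested. All 10 points of AM lie below 0, from −0.06 for Mthfd2 to −0.99 for Shmt2, and of the averages only that of Shmt2 (−0.48) was called.

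Averaged over the 4 populations, in 1 fit of all 43 libraries, Shmt2 fell by 0.48 on the log2 scale (SE 0.13, adjusted p = 0.0306) and was the only one of the 10 called, against 378 of 12529 genes (3.02%), of which 293 were higher (2.34%) and 85 lower (0.678%). The AM libraries were at 37.5, 40.4, 22.9, 19.3 and 31.8 CPM in hyperoxia against 49.1, 57.0 and 70.2 CPM (lowest, median and highest) in normoxia, with no overlap. The share of all genes without overlap in AM was not counted. Ly6Clo libraries were at 39.5, 35.4, 25.6, 44.2 and 33.3 CPM in hyperoxia, within or below the normoxic range given above. In Ly6Chi (30.4, 21.9, 9.43, 41.5 and 62.5 CPM) and DC (92.5, 69.0, 38.0, 73.2 and 67.5 CPM) the hyperoxic libraries overlapped the normoxic ones.

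The fold change of Shmt2 was −0.99 in AM (SE 0.22, unadjusted p = 0.000322, adjusted p = 0.124), −0.61 in Ly6Clo (SE 0.24, adjusted p = 0.86), −0.23 in Ly6Chi (SE 0.32, adjusted p = 0.88) and −0.10 in DC (SE 0.16, adjusted p = 0.873). By litter, the change on the log2(CPM + 1) scale in AM was −0.68 in litter 93, −1.11 in litter 100 and −1.22 in litter 108, and in Ly6Clo it was −0.67, −0.47 and −0.55. Shmt2 was lower in 10 of the 12 combinations of litter and population, which come from 3 litters. Phgdh was lower in 9 of the 12, and Ddit3 and Mthfd2 were each higher in 9. Such counts were not made over all genes. A test of whether the change of Shmt2 differs between the 4 populations gave an unadjusted p of 0.0337 and an adjusted p of 0.975. In that test 0 of 12529 genes were called and 617 had an unadjusted p under 0.05, so no difference between populations was shown.

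The call of Shmt2 in the average was a narrow one. With no litter term it was −0.36 (adjusted p = 0.303), and without litter 93, 100 or 108 it was −0.56 (0.0937), −0.38 (0.26) or −0.53 (0.0572). Without the 5 libraries under 1000000 counts it was −0.59 (adjusted p = 0.0515), and without the hyperoxic libraries of litter 100 it was −0.38 (adjusted p = 0.40). It also ended when 1 library was left out, for 6 of the 43: normoxic Ly6Clo 2 (adjusted p = 0.0596), hyperoxic DC 5 (0.0514), hyperoxic DC 3 (0.0639), normoxic DC 6 (0.051), hyperoxic Ly6Chi 3 (0.0711) and normoxic Ly6Chi 6 (0.0506). It held with DESeq2 (−0.46, adjusted p = 0.0149), with relative log expression scaling (−0.46, adjusted p = 0.0333) and with no filter on low counts (−0.48, adjusted p = 0.0131). In that average DESeq2 called 703 genes and the fit with no filter 1033, against 378 in the main fit.

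In AM all 10 genes were below 0, with a median of −0.40 against −0.01 over all 9986 genes, of which 51.2% were below 0. After Shmt2 the largest were Psph (−0.59, 95% interval −1.05 to −0.14, adjusted p = 0.377), Trib3 (−0.57, −1.13 to −0.01, adjusted p = 0.52), Phgdh (−0.54, −0.92 to −0.15, adjusted p = 0.341) and Psat1 (−0.49, −0.89 to −0.10, adjusted p = 0.42). Phgdh was at 42.9, 33.0, 28.6, 35.1 and 40.4 CPM in the hyperoxic AM libraries, all below the lowest normoxic one at 46.5 CPM, and was lower in 3 of 3 litters. How many of all genes separate in this way was not counted. Psat1 (257, 239.9, 76.3, 169 and 176 CPM) and Psph (48.2, 45.3, 17.2, 40.3 and 37.3 CPM) overlapped normoxia, and in both the litter 100 library was the lowest. Asns (−0.17, 95% interval −0.71 to 0.37), Atf4 (−0.08, −0.29 to 0.12) and Mthfd2 (−0.06, −0.44 to 0.32) were nearest to 0. By litter, Ddit3 and Shmt1 were higher in 2 of 3 litters in AM and Mthfd2 in 1 of 3. Atf4, Trib3, Asns, Phgdh, Psat1, Psph and Shmt2 were lower in 3 of 3. Under some alternatives Asns, Ddit3, Mthfd2 and Shmt1 were above 0, at up to 0.013, 0.068, 0.091 and 0.087.

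Set against the mean change of the other 3 populations, the change in AM was below 0 for all 10 genes (median −0.47). The share of all genes below 0 in this contrast is not given here. Under some alternatives the difference was above 0 for Mthfd2 (up to 0.065), Shmt1 (0.086) and Trib3 (0.19). By edgeR's quasi-likelihood test 0 of the 10 differences were called, in a test with 3 of 12529 genes called (0.0239%, with 0.016% higher and 0.00798% lower). By that test 1 of the 10, Shmt2, had an unadjusted p under 0.05, as did 800 of the 12529 genes. The largest was that of Trib3 (−1.15, 95% interval −2.50 to 0.21, adjusted p = 0.847), and that of Shmt2 was −0.74 (−1.31 to −0.16, adjusted p = 0.652). In the other populations the 10 genes had no common direction: 5 of 9 tested were above 0 in DC, 6 of 8 in Ly6Chi and 5 of 10 in Ly6Clo. Shares of all genes above 0 in these populations are not given here.

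In hyperoxic AM all 30 proliferation genes were also below 0 (median −0.98), with 0 called. All 27 of them tested in Ly6Clo were below 0 there (median −0.71), also with 0 called. The mean level of the proliferation genes was 6.49 and 6.20 log2 CPM in the hyperoxic AM libraries of litter 93, 4.41 in that of litter 100 and 5.23 and 4.53 in those of litter 108, against 5.84 to 6.64 in normoxic AM. The hyperoxic litter 93 libraries were within the range of all normoxic AM libraries but below the normoxic AM libraries of litter 93 (6.62 and 6.64). Their Shmt2 was at 37.5 and 40.4 CPM, below every normoxic AM library. Library totals were lower as well, with a median of 849561 counts in hyperoxic against 1279070 in normoxic AM, and epithelial markers summed to a median of 1057 (92.47 to 2152) against 1875 CPM (339 to 3004), with 9 of 9 tested below 0. Interstitial macrophage markers summed to 850.5 (524.3 to 1236) against 693.8 CPM (512.5 to 888.5), with 7 of 7 tested above 0 and with Cd163 and Folr2 at 0 in normoxic AM. The part of proliferation, depth or other cells in the AM values was not tested.

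After the mean of its group was taken from each library, Psat1 (r = 0.759), Shmt2 (0.657), Psph (0.638) and Shmt1 (0.501) correlated with the mean of the proliferation genes over the 43 libraries, with Asns at 0.0597 and Trib3 at 0.0407. The correlation with the log2 of the library total was 0.666 for Psat1, 0.589 for Shmt2, 0.565 for Psph, 0.489 for Mthfd2 and 0.441 for Asns, and it was lowest for Ddit3 (−0.367). All such values share the libraries, their depth and, in part, litters, and stand as descriptions. Among the 10 genes the closest pairs by this measure were Psat1 with Shmt2 (0.758), Psat1 with Psph (0.619), Psat1 with Mthfd2 (0.617) and Asns with Mthfd2 (0.606). Trib3 and Asns were at 0.487. The most opposed pairs were Ddit3 with Shmt2 (−0.46) and Ddit3 with Phgdh (−0.45).

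**Figure D4:**
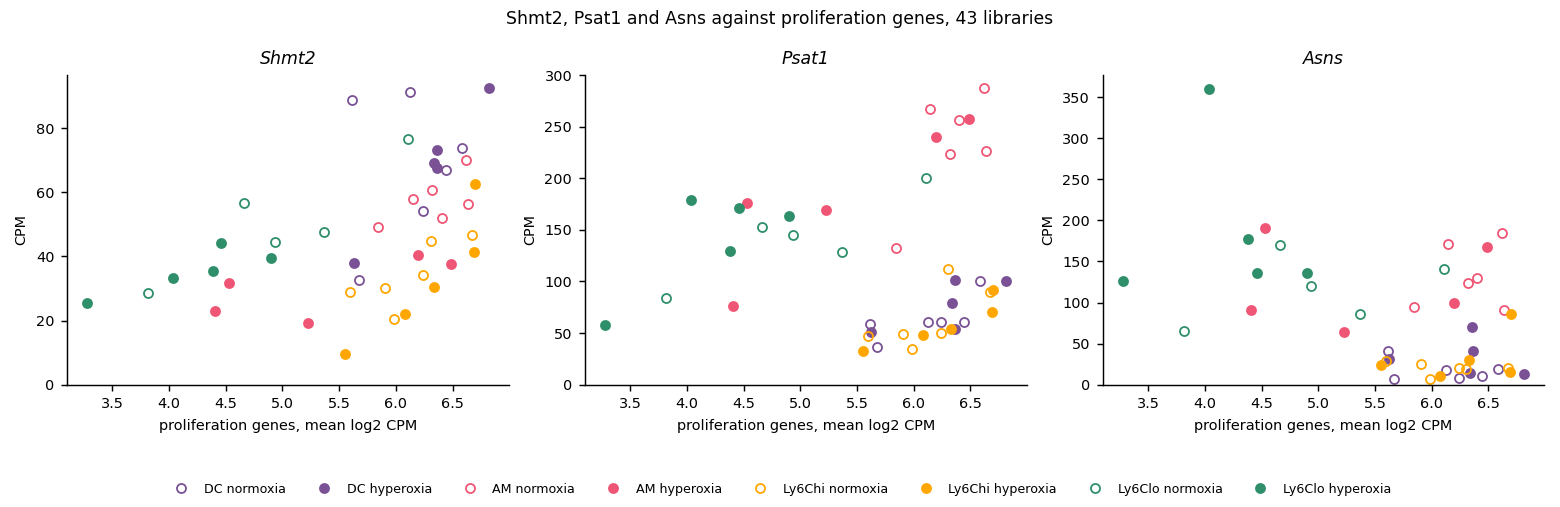
CPM of Shmt2, Psat1 and Asns in the 43 libraries against the mean log2 CPM of 30 proliferation genes, with open symbols for normoxia and filled ones for hyperoxia, coloured by population. Hyperoxic AM (filled pink) extends from 6.49 down to 4.41 on the horizontal axis, and its leftmost library has the lowest Psat1 of the group (76.3 CPM) and Shmt2 at 22.9 CPM, while Asns is highest (190.3 CPM) in the library at 4.53. The lowest Shmt2 of the group (19.3 CPM) is in the library at 5.23.

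Asns had the largest positive average of the 10 genes and was not called in hyperoxia. Its average over populations was 0.43 (SE 0.20, unadjusted p = 0.0425, adjusted p = 0.264), and a fit with no filter on low counts called it (0.43, adjusted p = 0.00649). That fit called 1033 genes, against 378 with the filter. In DC, where the fold change was 0.81 (95% interval 0.14 to 1.48, adjusted p = 0.546), the hyperoxic libraries were at 12.5, 14.7, 31.0, 40.5 and 70.0 CPM against a normoxic range of 6.71 to 41.2 CPM. Ly6Clo libraries were at 136, 178, 126, 136 and 360 CPM (0.50, −0.03 to 1.03), and Ly6Chi libraries at 29.8, 10.9, 24.1, 15.8 and 85.6 CPM (0.58, −0.34 to 1.50). In AM they were at 168, 99.1, 91.5, 64.0 and 190.3 CPM.

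The highest hyperoxic value of Asns came from library 5 in all 4 populations, and that of Trib3 and of Mthfd2 in 3 of the 4. All of these libraries belong to litter 108, as do the hyperoxic libraries 4, whose Asns was 40.5 CPM in DC, 64.0 in AM, 15.8 in Ly6Chi and 136 in Ly6Clo. The number is the order of deposit, and whether the libraries 5 share pups is not given in the sources used here. Without library 5 the Asns fold change was −0.0050 in Ly6Chi, 0.29 in Ly6Clo, 0.65 in DC and −0.44 in AM. The Trib3 values of that number were 22.1 CPM in DC, where the other 4 hyperoxic libraries were at 1.09 to 4.65, 41.2 CPM in Ly6Chi against 0 to 5.24, and 121 CPM in Ly6Clo against 41.6 to 63.2. In AM it was at 26.3 CPM, within 10.7 to 28.6. The average of Trib3 over populations, 0.26 (95% interval −0.36 to 0.89), turned to −0.11 without library 5 of Ly6Chi, with neither value called.

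**Figure D5:**
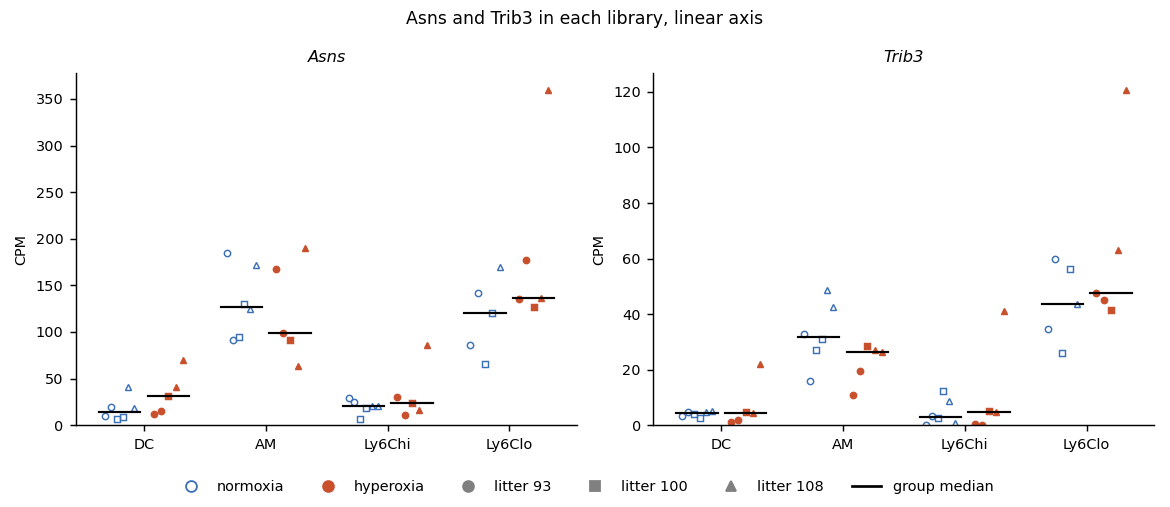
Asns and Trib3 in the 43 libraries on a linear CPM axis; open blue symbols are normoxic and filled red ones hyperoxic libraries, shapes give the litter, and bars are medians. One hyperoxic triangle (library 5, litter 108) stands above the rest of its group for Asns in Ly6Clo (360 CPM) and Ly6Chi (85.6 CPM), and for Trib3 in Ly6Clo (121 CPM), Ly6Chi (41.2 CPM) and DC (22.1 CPM).

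Neither Atf4 nor Ddit3 was called. The average of Atf4 was 0.05 (95% interval −0.06 to 0.16), the narrowest interval of the 10. Ddit3 averaged 0.21 (−0.04 to 0.45, adjusted p = 0.395), and was highest in Ly6Chi (0.60, 0.10 to 1.11, adjusted p = 0.758). There the hyperoxic libraries were at 47.3, 32.2, 173, 36.3 and 72.5 CPM, with the litter 100 library above all others, and without it the change was 0.25 (adjusted p = 1). In DC the litter 100 library (104.7 CPM) was also the highest. The averages of the remaining genes were 0.10 for Mthfd2 (−0.09 to 0.29), −0.06 for Shmt1 (−0.48 to 0.36), −0.12 for Phgdh (−0.50 to 0.26), −0.15 for Psat1 (−0.42 to 0.13) and −0.19 for Psph (−0.40 to 0.02).

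Further genes of the pathway were read from the same average over populations, where 3.02% of all genes were called. Of 23 ATF4 targets and amino acid genes tested, 3 rose and 2 fell. Slc7a11, the cystine transporter subunit that is also a target of the oxidant sensor NRF2, rose by 1.78 (SE 0.24, adjusted p = 3.92e-05), from 65.4 ± 27.3 to 353 ± 212 CPM in AM (SD, n = 6 and 5, hyperoxic range 143 to 641 CPM) and from 44.8 ± 13.3 to 110.3 ± 98.9 CPM in DC (SD, n = 6 and 5). Its highest hyperoxic values came from libraries 3 (litter 100) and 5 (litter 108) in all 4 populations, with 640.6 and 510.9 CPM in AM, 273 and 135.5 in DC, 170.9 and 167.7 in Ly6Chi and 663.4 and 713.7 in Ly6Clo. Slc3a2, the partner chain of that transporter, rose by 0.34 (SE 0.08, adjusted p = 0.0187), and Cebpb, a partner of ATF4, rose by 0.21 (SE 0.06, adjusted p = 0.0387). Aldh18a1, of proline synthesis, fell by 0.50 (SE 0.12, adjusted p = 0.0187), and Slc7a5, the large neutral amino acid transporter, fell by 0.72 (SE 0.20, adjusted p = 0.0392), a gene beyond the naming rule that is added because it completes the count. The median of the list was 0.05. Called genes of this list thus lay in both directions, and the 10 genes had a median of −0.0059 against −0.04 over all genes.

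Of the other lists, 3 of 30 proliferation genes fell (Mcm4 by 0.48, adjusted p = 0.0203; Kif11 by 0.83, adjusted p = 0.0236; Mcm5 by 0.46, adjusted p = 0.0473), with 29 of 30 below 0. No gene was called among 21 folate and one-carbon enzymes, of which 16 were below 0 (median −0.20) and the 3 of smallest p were Slc19a1, the folate carrier (−0.49, adjusted p = 0.186), Mthfd1l (−0.35, 0.252) and Mthfd1 (−0.26, 0.275). None was called among 20 aminoacyl-tRNA synthetases (Dars −0.33, adjusted p = 0.067; Eprs −0.14, 0.196; Wars 0.30, 0.208). The same held for 15 eIF2 kinases and regulators (Impact 0.33, adjusted p = 0.0999; Eif2b5 −0.29, 0.11; Ppp1r15b 0.19, 0.128) and for 22 chaperone and unfolded protein response genes (Herpud1 −0.22, adjusted p = 0.202; Selenos 0.12, 0.23; Dnajc3 −0.11, 0.249). It held as well for 11 serine and glycine transport genes (Kyat1 −0.67, adjusted p = 0.117; Slc1a5 −0.17, 0.317; Kyat3 −0.32, 0.329).

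Within AM none of these lists had a called gene. The values of smallest p were Slc7a11 (2.41, adjusted p = 0.0683), Aldh18a1 (−1.11, 0.0892) and Slc7a5 (−1.29, 0.176) among the amino acid genes. Among the folate genes Slc19a1 was at −1.98 (adjusted p = 0.2) and Tyms, thymidylate synthase, at −0.81 (adjusted p = 0.317), with 14 of 18 below 0.

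For each of the 10 genes the nearest patterns were sought among 12242 genes, as Pearson r of log2 CPM over the 43 libraries, which share sorts, litters and depth. The nearest gene was Nus1 for Atf4 (0.94), Plgrkt for Ddit3 (0.834), Ahnak2 for Trib3 (0.869), Ctsl for Asns (0.927), Slco2b1 for Phgdh (0.921), Tmem138 for Psat1 (0.936), Hnrnpab for Psph (0.858), Dctd for Shmt1 (0.785), Tdrkh for Shmt2 (0.858) and Naglu for Mthfd2 (0.828). Litaf and Gla followed Ctsl for Asns (0.926 each). Myc was the second nearest to Shmt2 at 0.855, and had the highest r of the 3 nearest once group means were removed (0.841). Removing group means lowered r for Phgdh and Slco2b1 to 0.47 and for Atf4 and Nus1 to 0.579, and for Psat1 and Tmem138 to 0.829.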

How the data were processed

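For 43 samples, lung cells had been sorted into SMART-Seq v4 lysis buffer, their cDNA amplified and Nextera XT libraries made, per the labels' protocols. The authors deposited raw counts per Ensembl gene. Per the submitters' processing notes the tools were FastQC, TopHat, Picard, SAMtools and HTSeq 0.4.1 with genome build NCBIM37. The role, order and settings of each tool are not given in the sources used here. No molecular identifiers are named, so amplified copies of 1 molecule cannot be told from separate molecules.

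Symbols came from a GRCm38 gene table (32919 of 37991 identifiers matched; those without a symbol held 0.828% of counts), and exon lengths from GENCODE M21. The highest count of any gene in a library was 4012. Levels are CPM from a single TMM scaling of all 43 libraries. Tests used edgeR 4.0.16 (R 4.3.3): TMM, filterByExpr with a minimum count of 10, robust quasi-likelihood F test with litter as an additive term, Benjamini-Hochberg adjustment over all genes of the fit, threshold 0.05. Intervals are nominally 95%, taken as 1.96 SE each way on the log2 scale. This normal approximation is narrower than the F test implies in these small groups. An interval can therefore leave out 0 where the quasi-likelihood test does not, as for Trib3 in AM (unadjusted p = 0.0609). The fits were tested on simulated data. Each population was fitted alone for hyperoxia, the 4 normoxic groups together for pairs of populations, and all 43 libraries together for the average over populations and its differences. The labels give a litter number for each library, which was kept as the block; whether it is the birth litter or the litter after mixing is not given in the sources used here. Within each population, the deviations of a litter in normoxia and in hyperoxia correlated with r from 0.0998 to 0.319 (11 of 12 correlations above 0.1). Such correlation between populations was not measured. No pair of libraries held identical values.

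Alternatives were DESeq2 1.42.0, relative log expression scaling, no filter, no litter term, a detected-gene covariate, and leaving out small libraries, litters and single libraries. The 10 genes, the gene lists and the tests were chosen with earlier results of these data known. Named beside the 10 genes are, in each list, up to 4 called genes of smallest p, or up to 3 where none was called, and for each of the 10 the 3 genes with the highest r. Of the genes this rule names, 2 are not reported here, and for some of the 10 only the nearest gene is given.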

Additional observations from a re-analysis of the deposited data

Results flagged for a closer look

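In 8 of 80 groups of libraries (10 genes in 8 groups) the highest library stood far from the rest of its group by Dixon's criterion. About 1 of 20 groups of normally distributed values would meet it. Here it was applied to CPM on a linear scale, and the groups share libraries, so 8 of 80 cannot be read against that rate. Of the 8, 6 came from hyperoxic library 5 of a population, all of litter 108. Trib3 was at 22.15 CPM in that library of DC (next highest 4.653), 41.24 CPM in that of Ly6Chi (next 5.241) and 120.7 CPM in that of Ly6Clo (next 63.24). Asns was at 85.65 CPM in that library of Ly6Chi (next 29.84) and at 359.9 CPM in that of Ly6Clo (next 177.7), and Mthfd2 at 261 CPM in that of Ly6Clo (next 134.9). Outside that number, Ddit3 was at 173 CPM in hyperoxic Ly6Chi library 3 (next 72.51), and Shmt1 at 47.1 CPM in normoxic Ly6Clo library 2 (next 25.29).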

How the results depend on the processing

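The 10 genes had 4183 values under the alternatives, including F statistics of the test for a difference between the 4 populations, which have no sign. Of the 4183, 123 changed sign, 121 of them with neither value past an unadjusted p of 0.05, and 0 were called in opposite directions. The other 2 came from hyperoxic libraries in place of normoxic ones, for AM over Ly6Chi, with −0.12 for Psph and −0.038 for Shmt2. Counts of called genes moved more, and the cause was not tested. DESeq2 called 24 genes for hyperoxia in DC, 111 in AM, 5 in Ly6Chi and 1 in Ly6Clo, 703 in the average, 21 for a difference between the 4 populations and 10 for AM against the others. With no filter these were 369, 325, 235, 173, 1033, 524 and 197. With no replicate block (litter left out) the average gave 138 in place of 378. A detected-gene covariate left 0 in AM, and leaving out small libraries gave 0 in AM and 104 in the average. Without litter 93 there were 2 in DC, 0 in AM and 1 in Ly6Chi, without litter 100 there were 20 in the average, and without litter 108 there were 5 in AM. AM against the others gave 0 without litter 93, 0 without litter 100 and 0 without litter 108. Without the hyperoxic libraries of litter 100 the average gave 13, the difference between populations 1 and AM against the others 1.

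Between normoxic populations, AM and DC gave 3959 called genes without litter 108. AM and Ly6Clo gave 1639 without litter 93, 1432 without litter 108 and 1309 in hyperoxic libraries. DC and Ly6Chi gave 2045 without litter 93 and 2243 in hyperoxic libraries, DC and Ly6Clo 1736 without litter 93, and Ly6Chi and Ly6Clo 2103 without litter 93 and 2200 without litter 108. Leaving out single libraries gave 161 to 557 in the average, 0 to 5 for a difference between populations, 0 to 6 for AM against the others, 5 to 39 in AM, 0 to 23 in DC, 0 to 0 in Ly6Chi and 0 to 1 in Ly6Clo. For pairs of populations it gave 5476 to 6127 (AM and DC), 5829 to 6341 (AM and Ly6Chi), 1795 to 2677 (AM and Ly6Clo), 2967 to 3605 (DC and Ly6Chi), 2417 to 3122 (DC and Ly6Clo) and 2953 to 3932 (Ly6Chi and Ly6Clo). Of the 6 genes with 4 calls, Psat1 lost 1 without litter 93 (Ly6Chi against Ly6Clo, −0.84, adjusted p = 0.0873 by edgeR). Depth limits the low genes most: Trib3 had 0 counts in 2 libraries and Phgdh in 1.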
